A study of Mus musculus and Rattus norvegicus with 80 samples.

Results

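Long interspersed element-1 (L1) loci of the mouse genome that were listed as full length but non-intact, that had the typical core length of 4800 to 5100 bp, and that lay close to another listed L1 were examined for their RNA. A locus was taken as clustered when another listed L1 core of any list and either strand started within 20 kb of its own start on the same chromosome. Each core was taken once, and loci of the list named OR2F were left out. Of the 17019 distinct cores in the lists, 11164 were non-intact loci of typical length off the OR2F list, and 3338 of these (29.9%) were clustered. The other 7826 had no listed core within 20 kb and are called isolated. The rule uses list, length and position and no read count, but it was set with earlier results of these data known.

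The study sequenced polyadenylated cytoplasmic RNA of C57BL/6 mouse organs, strand-specifically and from both ends of each fragment, to measure L1 RNA locus by locus. The mice carried no engineered allele and received no treatment that the labels name. Male mice gave testis and liver at 1.9-3.6 mo (3 mice), 7.6 mo (3 mice) and 22.3 mo (3 mice), and brain (3 mice) and lung (2 mice) at 7.6 mo. Female mice gave brain, lung and ovary at 2.2-3.2 mo (3 mice), 8-8.7 mo (4 mice) and 16.5 mo (2 mice), and uterus from 1, 3 and 2 of these mice. Another 12 libraries, of male mice at 12.8 mo, were measured over shorter windows and were kept apart, which left 56 libraries. The 2-read loci covered at most 200 bases in each male and 300 bases in each female library, so sex and read length cannot be told apart and organs were compared within a sex. The deposited values cover L1 loci only, so the labelled organ could not be checked against marker genes.

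An L1 is a mobile element that copies itself through an RNA, which it makes from a promoter inside its own 5′ end and which encodes the proteins for its insertion. Most copies in a genome carry changes that disrupt these proteins, and such non-intact copies may still be transcribed, from their own promoter or as a passenger within the RNA of another gene. Reads on the strand of an L1 therefore do not by themselves show which promoter made the RNA, and the loci were not sorted by promoter here. The submitters kept only reads with a single alignment, so a count of 0 limits the uniquely aligned reads of a locus and not its RNA.

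The highest clustered locus in every organ was UID-3342 (mm10, chrX:79191262-79196308, plus strand), and the annotation places the processed pseudogene Rps24-ps3 inside it, at chrX:79195047-79195448. The study's authors classed UID-3342 as background and not as RNA from an L1 promoter, since its heap of reads did not follow how well the locus can be mapped. Its levels and the sums that hold it are therefore not levels of such L1 RNA. Rps24 encodes a protein of the small ribosomal subunit, and a processed pseudogene is a copy of a spliced messenger RNA. GENCODE release M21 gives the pseudogene 402 bases, of which 398 (99.0%) were the same in the Rps24 transcript Rps24-210, a gene of chromosome 14, and all 4 of the exon junctions in the 5-exon transcript fell inside this stretch. The first stretch below crosses an exon junction, with the capitals marking the next exon of Rps24. It is shown because the locus and the messenger RNA have the same bases there, at chrX:79195101-79195130.
Rps24-ps3: cagaggaaacagatgGTCATTGATGTCCTT
Rps24-210: cagaggaaacagatgGTCATTGATGTCCTT
The second stretch, at chrX:79195397-79195426, is shown because it holds bases that tell them apart, and the capitals mark these.
Rps24-ps3: caggggcacTgcgaaggccaatgttggtgT
Rps24-210: caggggcacGgcgaaggccaatgttggtgC

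Reads on UID-3342 took 49.2 to 62.5% of all reads on clustered loci in testes and 93.2 to 97.9% in livers. The share was 62.8 to 88.7% in brains, 86.1 to 99.2% in lungs, 73.3 to 95.0% in ovaries and 91.9 to 99.0% in uteri. In each of the 56 libraries these reads covered 7.11 to 7.66% of the measured window, which is 480 to 517 bases of a window that holds the core, 700 bases before it and 1000 bases after it. The covered length was thus slightly longer than the pseudogene and nearly the same in every organ. The neighbour UID-4157, which starts 7134 bp away on the opposite strand, had reads in 3 testes, at most 8 in a library, and none elsewhere. Which of its reads came from Rps24 messenger RNA was not tested, and sums over the clustered loci are given below with and without it.

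Levels are given in reads per 1000000 mapped reads (rpm). UID-3342 lay at 173, 229 and 264 (lowest, median and highest of 9) in testes and at 95.0, 310 and 424 in 9 livers. Brains were lowest, with 39.3, 80.0 and 157 in 12 libraries, and ovaries had 160, 197 and 355 in 9. Uteri had 369, 487 and 671 in 6 libraries. The 2 male lungs stood apart from every other library with 3016 and 2606, whereas the 9 female lungs did not exceed 538. At 7.6 mo, the level was 228 ± 10.8 (SD, n = 3) in testis against 402 ± 33.0 (n = 3) in liver and 2811 ± 291 (n = 2) in lung, and edgeR's quasi-likelihood test gave log2 differences of -0.82 (SE 0.14, adjusted p = 7.11e-09) and -3.62 (SE 0.11, adjusted p = 1.64e-187). Scaled by the trimmed mean of M values (TMM) over L1 loci, these were -2.34 and -3.31. Against brain, at 149 ± 7.07 (n = 3), testis was higher by 0.61 (SE 0.09, adjusted p = 3.51e-11), a direction that turned to -0.25 (adjusted p = 0.256) with TMM. In females at 8-8.7 mo, UID-3342 was higher in ovary, at 214 ± 24.4 (n = 4), than in brain, at 79.6 ± 19.2 (n = 4), by 1.42 (SE 0.22, adjusted p = 2.95e-05), and with TMM this was 0.81 (adjusted p = 0.176). It was also higher in lung, at 312 ± 73.8 (n = 4), than in brain, by 1.97 (SE 0.25, adjusted p = 2.98e-05). Without mouse 1325, whose brain may hold duplicate reads on the plus strand, these were 1.50 and 2.12. Between ages of testis it did not pass the test, with log2 differences of 0.07 from 1.9-3.6 to 7.6 mo and 0.00 from 7.6 to 22.3 mo. Fewer cells of a type and less RNA per cell cannot be told apart in such bulk samples, here and in what follows.

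The clustered loci were spread over many small groups. The median core was 4993 bp long (4801 to 5100), and the nearest start was at a median of 12539 bp. Counting all listed cores within 20 kb, 2854 loci had 1 neighbour, 448 had 2, 35 had 3 and 1 had 4. The nearest neighbour was another non-intact locus for 2915, an intact locus for 409 and an OR2F locus for 14. Linking starts within 20 kb gave 2030 chains, of which 903 held 1 clustered locus of typical length, 975 held 2, 128 held 3, 19 held 4 and 5 held 5. On the X chromosome lay 494 of the clustered loci (14.8%) against 687 of the isolated ones (8.78%), and on the Y chromosome 103 (3.09%) against 477 (6.10%). Outside any annotated gene lay 2742 of the clustered loci (82.1%) against 75.3% of the isolated, while 209 (6.26%, isolated 9.06%) lay in a gene of the same strand and 398 (11.9%, isolated 16.3%) in a gene of the opposite strand. These are counts of annotated positions, and no test was made on them.

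Strand and distance went together at short range. The nearest neighbour was on the same strand for 1839 loci (55.1%), but for 138 of the 139 (99.3%) whose nearest start was closer than 5 kb. At 5 to 10 kb this was 476 of 921 (51.7%), and at 10 to 20 kb 1225 of 2278 (53.8%). For 146 clustered loci (4.37%) a listed core of the same strand began at the very base where the locus ended, in each case at its 3′ end and in none at its 5′ end. The adjoining cores were 372 to 6860 bp long, with a median of 1539. Thus the closest neighbours included short cores listed separately that continued directly from a typical-length core, and 230 clustered windows overlapped a listed window on the same strand, so a read there could be counted for both. Of the 146, 89 had a read in some library, and 69 of those 89 also had a read on the adjoining core.

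**Figure D1:**
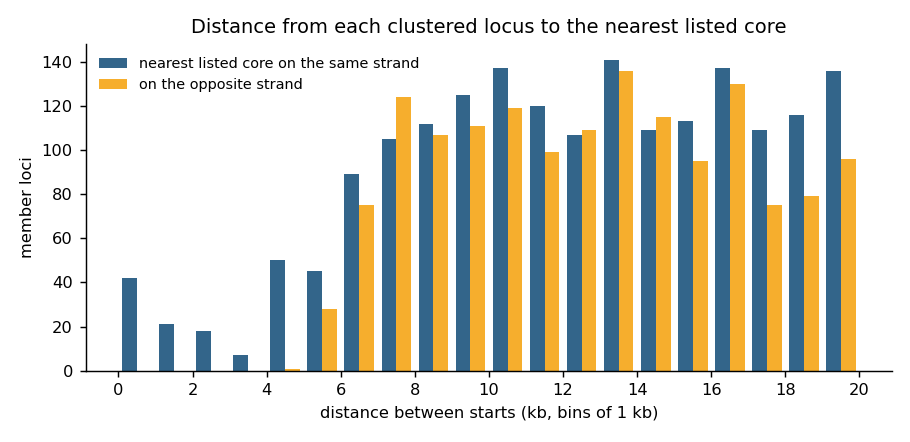
Number of clustered loci (y axis) by the distance in kb from their start to the nearest listed start (x axis, bins of 1 kb), with blue bars for a nearest core on the same strand and orange bars for the opposite strand. Below 5 kb nearly all bars are blue, with 138 of 139 loci on the same strand, and beyond it the strands are nearly even.

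Several loci show what the 20 kb limit decided, and they were picked for their distance alone. UID-13217 and UID-13463, which are each other's neighbour at 19989 bp, fell just inside, with 0 and 22 reads over all libraries, the latter in 6 of them. UID-2255, at 19986 bp, had 0 reads. Just outside lay UID-11715, UID-12549 and UID-12550, each at 20004 bp and each with 0 reads. In testes, 13.1, 15.9 and 19.7% (lowest, median, highest library) of the 427 loci with a nearest start at 18 to 20 kb had a read, against 16.6, 20.8 and 24.1% of the 332 loci at 20 to 22 kb. The median was also lower at 18 to 20 kb in liver, brain, lung and ovary, but higher in uterus (2.58 against 2.41%). The ranges of the 2 bands overlapped in every organ, and no test was made.

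Most clustered loci had few reads or none. A read was seen in some library on 2047 of the 3338 (61.3%, isolated 64.3%), and 1291 had none in any of the 56. In a testis library 445, 634 and 693 clustered loci (lowest, median, highest of 9) had a read, and in other organs far fewer did. The counts were 27, 43 and 63 in livers, 56, 112 and 181 in brains, 25, 58 and 81 in lungs, 62, 121 and 187 in ovaries and 22, 78 and 109 in uteri. No library of another organ reached the lowest testis. The mapped reads of a library, which bear on such counts, ranged from 8.45 M to 51.4 M (M, 1000000), and intervals or limits drawn from reads here cover counting error only.

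More than 10 reads were reached by 301 clustered loci in some library, by 234 of them in a testis, by 88 in another organ and by 21 in both. In testes the number over 10 reads was 94, 146 and 113 at 1.9-3.6 mo, 151, 131 and 75 at 7.6 mo and 126, 121 and 112 at 22.3 mo, so the ages overlapped. Livers had 2, 5 and 9 such loci (lowest, median, highest), brains 7, 12.5 and 24, lungs 1, 12 and 15, ovaries 4, 15 and 30 and uteri 3, 13 and 17. Every testis thus had at least 75 and no other library more than 30. Of the 301, 44 were over 10 reads in all 9 testes, and 114 were over 10 reads in a testis while no library outside testis had a single read on them. Among the 7826 isolated loci, 765 were over 10 reads in a testis. The median testis library had 3.62% of the clustered and 5.26% of the isolated loci over 10 reads. The 44 and the 114 are given without isolated counterparts, so they cannot be called particular to clustered loci. The 7.6 mo testis with 75 belonged to mouse 1305, and leaving that mouse out moved the mean difference between 7.6 and 1.9-3.6 mo from 1.33 to 23.3 loci and that between 22.3 and 7.6 mo from 0.667 to -21.3 loci.

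Coverage described how much of a window the reads touched. It depends on read length, which followed sex here, so values of male and female libraries cannot be compared. Over the clustered loci with more than 10 reads, the median coverage was 18.7, 20.3 and 22.2% in testes (lowest, median, highest library), and it was 14.5, 30.5 and 45.6% in brains and 19.8, 30.9 and 43.9% in ovaries. Livers had 9.89, 16.6 and 33.0%, lungs 5.22, 17.0 and 29.3%, and uteri 5.60, 25.4 and 31.1%, which rests on few loci in each library. The brains and lungs pool the sexes. Male brains had 22.6, 14.5 and 17.2% and female brains 19.8 to 45.6%, while male lungs had 7.26 and 5.22% and female lungs 7.62 to 29.3%. Loci covered over more than 50% of the window numbered 3, 11 and 21 in testes. In livers there were 0 to 1, in brains 0 to 7, in lungs 0 to 2, in ovaries 0 to 10 and in uteri 0 to 6.

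Summed over the clustered loci, the level in testes was 280, 405 and 416 rpm at 1.9-3.6 mo, 476, 447 and 347 at 7.6 mo and 423, 382 and 350 at 22.3 mo. Without UID-3342 the same testes had 107, 177 and 164, then 242, 212 and 131, then 159, 166 and 145. The groups overlapped in age either way. Livers gave 98.5 to 444 in all but only 3.47 to 25.4 without UID-3342, and the order of testis and liver hence rested on 1 locus. At 7.6 mo the mean sum differed by 0.00 on the log2 scale between testis (423 ± 67.8, n = 3) and liver (420 ± 28.2, n = 3), with overlapping libraries.

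In the other organs the single locus moved the order as well. Male lungs summed to 3041 and 2631 rpm with UID-3342 and to 25.1 and 25.7 without it, against 30.3, 25.9 and 19.3 without it in the brains of the same age. The log2 difference of testis from male lung was -2.75 with it and 2.89 without it. In females at 8-8.7 mo, ovaries summed to 241, 257, 245 and 261 with UID-3342, lungs to 338, 247, 426 and 308, brains to 82.8, 86.1, 126 and 115, and uteri to 456, 457 and 663. Without it, ovaries had 25.6, 31.6, 65.4 and 25.6, lungs 15.0, 20.2, 21.6 and 14.5, brains 22.4, 20.1, 32.4 and 16.4, and uteri 21.3, 25.0 and 6.71. Ovary minus uterus was therefore -1.04 with it and 1.16 without it, ovary minus lung -0.37 and 0.96, and lung minus brain 1.68 and -0.33. With it, every ovary exceeded every brain, at a log2 difference of 1.31. No p is given for a sum, since the loci were chosen with earlier results of these data known.

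**Figure D2:**
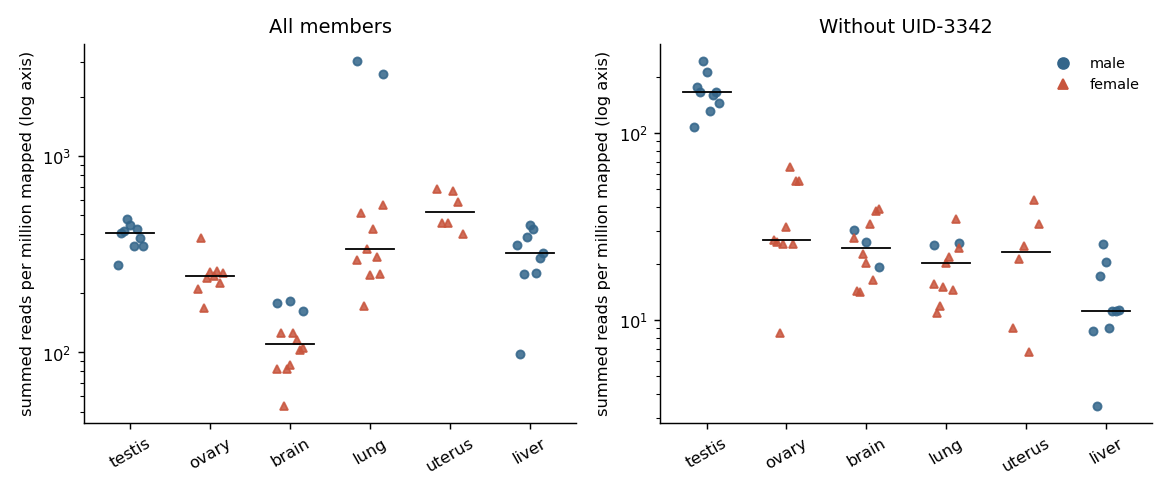
Summed level of the clustered loci per library in rpm (y axes, log scale) by organ (x axes), over all loci on the left and without UID-3342 on the right, with circles for male and triangles for female mice and a line at the median. The male lungs at 3041 and 2631 stand above all others on the left, and on the right every testis, from 107 upward, lies above every other library.

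Between ages in the other organs the sums mostly overlapped. Liver was the exception, at 350, 98.5 and 252 rpm at 1.9-3.6 mo, 389, 444 and 426 at 7.6 mo and 255, 302 and 322 at 22.3 mo. All livers of 7.6 mo lay above those of both other ages, with a log2 difference of 1.03 from 1.9-3.6 to 7.6 mo and of -0.52 from 7.6 to 22.3 mo. The first was 0.50 without mouse 1110, whose liver had the 98.5. Without UID-3342 the livers had 8.77, 3.47 and 17.1, then 25.4, 20.4 and 9.04, then 11.2, 11.2 and 11.3, and these ages overlapped. As a share of L1 reads, all clustered loci of these livers had 26.0, 26.2 and 23.1%, then 25.6, 27.5 and 27.0%, then 23.2, 25.0 and 23.0%. The log2 differences of these shares were 0.092 and -0.17, and those of 7.6 mo overlapped those of 1.9-3.6 mo, so the size of the liver difference depended on scaling by mapped reads. Ovary, brain and lung differed between 2.2-3.2 and 8-8.7 mo by 0.07, 0.30 and 0.12, with overlapping libraries. At 16.5 mo, with 2 mice and no test, ovaries without UID-3342 had 55.1 and 55.4, and brains 38.0 and 39.1.

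The clustered loci were set against the isolated loci of the same length and list. The mean reads per clustered locus exceeded those per isolated locus in all libraries, by 0.61 ± 0.13 on the log2 scale (SD over 9 testes), 1.52 ± 0.26 over 9 livers, 1.29 ± 0.64 over 12 brains, 3.13 ± 1.29 over 11 lungs, 1.82 ± 0.75 over 9 ovaries and 3.30 ± 1.22 over 6 uteri. UID-3342 had the most reads of the clustered loci in all 56 libraries, whereas in no organ did an isolated locus take as large a share of its class. The isolated locus with the most reads in a library held 2.50 to 3.82% of the isolated reads in testes, 4.08 to 10.4% in brains, 10.2 to 16.3% in lungs, 9.02 to 15.2% in ovaries, 8.53 to 29.2% in uteri and 37.6 to 68.2% in livers. After the locus with the most reads of each class in that library was left out, an alternative chosen after seeing the data, the ratio was below 0 in all 56 libraries, with means of -0.60, -2.17, -0.84, -1.35, -0.98 and -1.23 in the same order. Since this takes most reads from the clustered class and fewer from the isolated class, it shows that the higher mean of clustered loci rested on UID-3342, and it ranks the classes no further. Within sex, the values with all loci were 1.93 and 1.08 in male and female brains and 5.45 and 2.62 in male and female lungs.

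The share of loci with a read counts every locus once. In testes it was 13.3, 19.0 and 20.8% of the clustered loci (lowest, median, highest) and 17.4, 22.6 and 25.0% of the isolated loci. In brains it was 1.68, 3.36 and 5.42% against 3.16, 5.05 and 8.00%, and in lungs 0.749, 1.74 and 2.43% against 1.33, 3.34 and 3.71%. Ovaries had 1.86, 3.62 and 5.60% against 2.10, 4.82 and 7.09%, uteri 0.659, 2.34 and 3.27% against 1.05, 3.21 and 4.72%, and livers 0.809, 1.29 and 1.89% against 0.843, 1.58 and 2.12%. The clustered share was lower than the isolated share in every library, with a mean log2 ratio of -0.26 in testes and -0.71 in lungs.

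**Figure D3:**
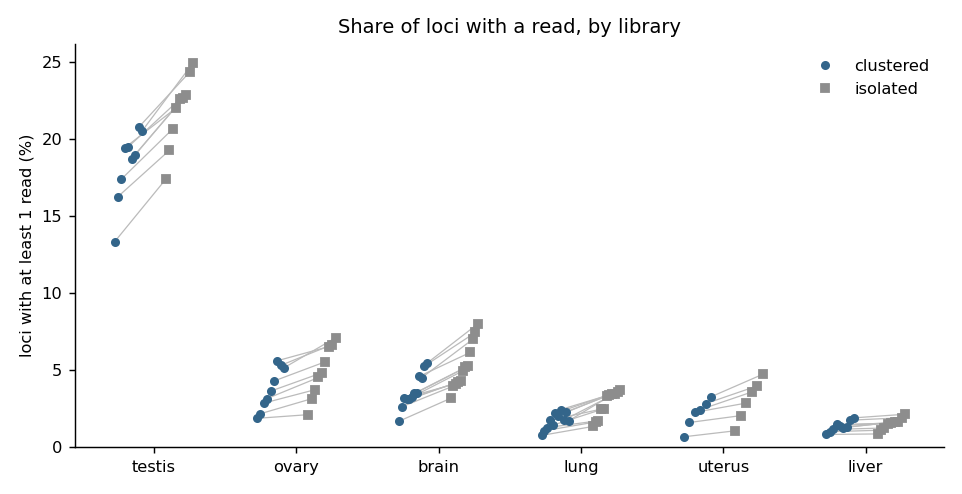
Percent of loci with at least 1 read (y axis) in each library by organ (x axis), with blue circles for clustered and grey squares for isolated loci and a line joining the values of 1 library. Every line rises from clustered to isolated, from a median of 19.0 to 22.6% in testes and from 1.74 to 3.34% in lungs.

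In both classes this share differed with position. In testes, a median of 33.0% of clustered loci in a gene of the same strand had a read (isolated 37.4%), against 21.2% in a gene of the opposite strand and 17.8% outside genes (isolated 19.8%). In the other organs the share for clustered loci in a same-strand gene was 13.2% in brain (isolated 22.0%), 12.9% in ovary (20.6%), 8.61% in lung (13.7%), 8.61% in uterus (13.4%) and 5.26% in liver (7.33%). Loci on autosomes had a read in 21.6% in testes (isolated 25.3%), those on the X chromosome in 9.72% (isolated 9.17%) and those on the Y chromosome in 1.94% (isolated 1.68%). The Y shares rest on few loci, since 8 of 103 clustered and 48 of 477 isolated loci there had a read in any testis. In testes the clustered share was thus below the isolated share on autosomes, in same-strand genes and outside genes, but not on the X or the Y chromosome. Outside genes, livers went the other way, with 1.02% against 0.933% isolated. On the X chromosome the clustered median was lower in brain (2.02 against 2.91%), lung (0.810 against 1.02%) and uterus (1.52 against 1.97%). It was higher there in ovary (2.83 against 2.77%) and liver (0.607 against 0.437%). In liver this rests on few loci, with a read in any liver on 17 of 494 clustered and 25 of 687 isolated loci. The part of chromosome and gene position in the difference over all loci was not tested.

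Locus by locus, edgeR compared organs at 1 age on reads scaled by mapped reads, over all listed loci that passed its low-count filter. Between testis and liver at 7.6 mo, 81 clustered loci passed the filter, 76 were higher in testis (92.3% of all loci tested) and 2 in liver (5.49% of all), a share called of 96.3% where it was 97.8% over all loci. Against brain, 89 passed, 76 were higher (all loci 82.9%) and 11 lower (9.3%) in testis, together 97.8% against 92.1% of all loci. Against lung, 136 passed, 124 were higher (all loci 87.8%) and 5 lower (5.35%), together 94.9% against 93.1%, and with the animal as a block 34 in place of 129 were called. These shares lay near those of all loci, so they are no result about the clustered loci. Of the clustered loci called, 68 had no read in liver, 60 none in brain and 118 none in lung. These passed the filter through testis alone, so their direction was set in advance. Likewise, each locus below with no read in 1 group entered through the other group, and its adjusted p adds nothing to its reads. The same testes entered all of these comparisons, and the same brains both female ones below. The median log2 difference, with loci at 0 in a group set to their bound, was 4.35 for clustered against 4.21 for all loci versus liver, 4.79 against 4.77 versus brain and 2.75 against 2.72 versus lung. TMM scaling moved the median of all loci taken without the bound (7.47, 7.42 and 6.82) by -0.38, -0.40 and 0.08. Most loci in those medians had no read in the other organ. A locus read in both organs could move further, as UID-3342 did against liver, from -0.82 to -2.34.

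UID-59 (chr2:23296915-23301901, plus strand, in no annotated gene) was the highest clustered locus of testis after UID-3342. Its testes had 460, 696 and 534 reads at 1.9-3.6 mo, 962, 948 and 425 at 7.6 mo and 485, 520 and 562 at 22.3 mo, over 94.8 to 99.1% of the window. No other library exceeded 8 reads, which was reached in a brain, and lungs and uteri had 0. At 7.6 mo the level was 22.9 ± 7.33 rpm (SD, n = 3), at least 480.5-fold above liver and 275-fold above lung, where no read was seen and the bound takes 3 reads over the group (edgeR adjusted p = 1.1e-62 and 2.22e-29), and higher than brain by 9.15 on the log2 scale (SE 0.46, adjusted p = 5.96e-78). Its neighbour UID-705, on the opposite strand with its start 14965 bp away, had at most 4 reads in a library. Testes of 22.3 mo did not pass the test against 7.6 mo (log2 difference -0.76, SE 0.25, edgeR adjusted p = 0.197).

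Other loci were read in testis and nearly nowhere else. UID-10208 (chr10:39300246-39305206, minus strand), within the long non-coding RNA gene Gm48486 of its own strand, had 140, 187 and 163 reads at 1.9-3.6 mo, 322, 181 and 157 at 7.6 mo and 150, 142 and 148 at 22.3 mo, and outside testis only 2 reads in 1 brain. It was at least 136-fold above liver, 238-fold above brain and 77.7-fold above lung at 7.6 mo (edgeR adjusted p = 5.61e-28, 5.84e-33 and 3.96e-14). Its neighbour UID-10578, in the same gene and on the same strand, followed at 14 to 61 reads in the 9 testes. UID-7779 (chr13:35133469-35138482, minus strand, no gene) had 77, 116 and 90, then 162, 130 and 70, then 51, 108 and 136 reads in testes and 0 in the other 47 libraries. Its level at 7.6 mo, 3.55 ± 1.00 rpm, was at least 74.3-fold above liver (edgeR adjusted p = 2.26e-18). UID-7510, which starts 8149 bp away on the opposite strand, had 2 reads in all.

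UID-8059 (chr8:129147601-129152581, plus strand) lay within the coiled-coil gene Ccdc7b and was likewise read in testes only, with 66, 170 and 109, then 148, 102 and 63, then 88, 62 and 123 reads. At 7.6 mo it was at least 64.1-fold above liver, 113-fold above brain and 36.7-fold above lung (edgeR adjusted p = 1.27e-16, 1.11e-19 and 7.69e-10). The 1546 bp core UID-8030 adjoined its 3′ end and had 32 to 80 reads in the 9 testes and 0 elsewhere, so both listed cores of the pair were read in the same libraries. Their windows overlap, and how many reads they share was not tested.

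In liver, UID-13421 (chr4:96650144-96655085, minus strand) stood first after UID-3342. It lies within Cyp2j5, which encodes a cytochrome P450 enzyme, on the strand of that gene. Livers had 114, 77 and 368 reads at 1.9-3.6 mo, 343, 328 and 72 at 7.6 mo and 174, 148 and 65 at 22.3 mo, over 40.4 to 94.5% of the window, and no other library had any. At 7.6 mo it had 11.3 ± 6.48 rpm (n = 3) and was at least 378-fold above testis (edgeR adjusted p = 4.4e-45). The 666 bp core UID-13420 adjoins its 3′ end within the same window and had 14 to 147 reads in livers and 0 elsewhere. UID-6143 (chr3:114715240-114720181, minus strand), also high in liver, was shared with testis, with 4, 28 and 130 reads (lowest, median, highest) in livers and 16, 30 and 78 in testes and 0 in the other organs. At 7.6 mo the groups overlapped (log2 difference of testis from liver 0.80, SE 0.58, edgeR adjusted p = 0.173).

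In brain, UID-11144 (chr12:81351689-81356676, minus strand) had 35, 86 and 308 reads (lowest, median, highest of 12). Lungs had 2 to 30, ovaries 2 to 88, uteri 4 to 43, and testes and livers 0 to 6. At 7.6 mo it was lower in testis than in brain by 6.39 on the log2 scale (SE 0.72, edgeR adjusted p = 1.07e-17), a ratio of 101. The testes of 7.6 mo had 4, 0 and 0 reads, so 1 library decides that ratio, and the log2 difference was -9.58 without mouse 1209. In females at 8-8.7 mo it was lower in ovary than in brain, with a difference of -1.99 (SE 0.53, adjusted p = 0.00405), and lower in lung, with -2.87 (SE 0.65, adjusted p = 0.00171). One of these brains, of mouse 1324, stood at 7.78 rpm while the others had 2.23 to 2.34. The adjoining 688 bp core UID-10778 had 24 to 215 reads in the brains.

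UID-9160 (chr1:30743515-30748343, minus strand) was read in brain alone, with 8, 26 and 40 reads over the 12 brains and 0 in the other 44 libraries. It was at least 28.7-fold above testis at 7.6 mo (edgeR adjusted p = 1.62e-10). UID-1556 (chr9:3597706-3602670, plus strand), within Gucy1a2, which encodes a subunit of soluble guanylate cyclase, had 16, 53.5 and 103 reads in brains and at most 34 in any other organ. It was lower in testis than in brain, with -2.78 (SE 0.62, edgeR adjusted p = 9.72e-06), and lower in female lung than in brain, with -2.50 (SE 0.51, adjusted p = 0.000947). Ovary was lower than brain by 1.62 (adjusted p = 0.0378), a call lost without mouse 1325 (0.0798), 1337 (0.135) or 1338 (0.12), or with no low-count filter (0.143). UID-4794 on chromosome 18 lay in the predicted genes Gm37013, Gm37388 and Gm42416 and had 4, 11.5 and 40 reads in brains, at least 9.46-fold above testis at 7.6 mo (edgeR adjusted p = 3.59e-10), and its same-strand neighbour UID-5073 in the same genes had up to 24.

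**Figure D4:**
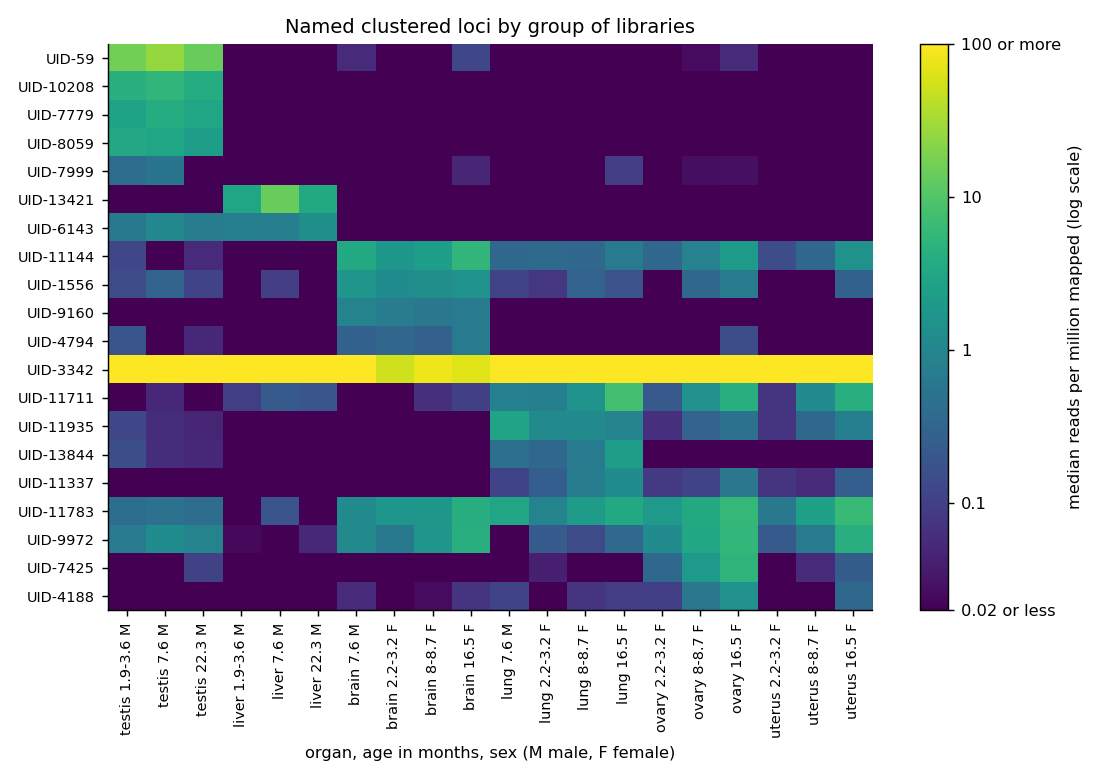
Median level of 20 named clustered loci (y axis) in each group of libraries (x axis, organ, age in months and sex), as colour on a log scale of rpm. UID-3342 is bright in every column, UID-59 to UID-8059 are bright in testis columns, UID-13421 is bright in liver columns, and UID-11144 to UID-4794 are brightest in brain columns.

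In female mice, fewer clustered loci passed the filter. Between ovary and brain at 8-8.7 mo, 13 clustered loci passed the filter, 6 were higher (all loci 37.1%) and 2 lower (20.7%) in ovary, together 61.5% against 57.8%, and with TMM scaling, which moved the median of all loci by -0.78, 4 were higher and 3 lower. Between lung and brain, 14 passed, 7 were higher (all loci 33.7%) and 4 lower (36.6%) in lung, together 78.6% against 70.3%, with a TMM shift of -0.25. The median log2 differences, with the bound for loci at 0, were 1.03 against 0.78 over all loci and 0.80 against -0.01.

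UID-11783 (chr7:31225136-31230125, plus strand, no gene) was read in 52 of the 56 libraries. It had 62, 86 and 314 reads in ovaries, 16, 117 and 168 in uteri, 38, 53 and 162 in brains, 8, 50 and 92 in lungs, 10, 16 and 20 in testes and 0 to 8 in livers. Testis lay below all lungs and brains of 7.6 mo, and edgeR gave -2.66 against lung (SE 0.64, adjusted p = 6.12e-05, and 0.224 with the animal as a block) and -1.53 against brain (adjusted p = 0.0109, but 0.0655 without mouse 1209 and 0.0638 without mouse 1303). Its ovary and brain libraries overlapped, and the call of 1.23 (adjusted p = 0.0425) held in only 4 of 9 settings.

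UID-11711 (chr7:106412319-106417308, minus strand) had its highest medians in lung, ovary and uterus and was near 0 in testis, brain and liver, where no library exceeded 10 reads. The lowest lung (0.212 rpm, male mouse 1209), ovary (0.0855) and uterus (0.0748) lay below the highest brain (0.253) and liver (0.274). Female lungs had 21, 4 and 55 reads at 2.2-3.2 mo, 52, 34, 19 and 83 at 8-8.7 mo and 222 and 64 at 16.5 mo, and ovaries had 17, 1 and 9, then 90, 18, 34 and 72, then 240 and 48. The 16.5 mo lungs were the highest in rpm, but with 2 mice no test was planned on them. It was higher than in brain by 3.87 in ovary (SE 0.89, edgeR adjusted p = 0.00132) and by 4.06 in lung (SE 0.87, adjusted p = 0.00138). UID-9972 (chr16:16429793-16434653, minus strand), within Fgd4, which encodes an activator of the small GTPase Cdc42, differed in that lung was low. It had 8, 51 and 165 reads in brains, 10, 86 and 233 in ovaries, 6, 25 and 133 in uteri, 24, 36 and 72 in testes and 0, 4 and 12 in lungs. Lung was lower than brain, with a log2 difference of -3.16 (SE 0.83, edgeR adjusted p = 0.00452).

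Further loci were named for their level in ovary or lung. UID-7425 (chr13:19834143-19839108, minus strand) had 188, 4 and 0 reads in ovaries of 2.2-3.2 mo, 70, 66, 98 and 46 at 8-8.7 mo and 98 and 241 at 16.5 mo, and at most 12 in any other library. At 8-8.7 mo it was at least 102-fold above brain (edgeR adjusted p = 6.27e-06). UID-4188 (chrX:21269539-21274481, minus strand), whose neighbour UID-15893 is an intact L1 of the same strand with at most 2 reads, had 2, 20 and 67 reads in ovaries and was higher there than in brain by 4.04 (SE 0.90, edgeR adjusted p = 0.00106). UID-11935 (chr7:33886536-33891529, minus strand) had 6, 34 and 64 reads in the 11 lungs and was also read in ovaries, with 2, 8 and 26, and in 5 of 6 uteri, with at most 26. It had a difference of testis from lung of -4.85 (SE 0.74, edgeR adjusted p = 6.73e-10) and a level in female lung at least 51.7-fold above brain (adjusted p = 6.44e-05). UID-13844 (chr11:14122518-14127516, minus strand), within the long non-coding RNA gene 4930554G24Rik, had 0, 16 and 72 reads in lungs, and UID-11337 (chr19:8025032-8030029, plus strand) had 2, 12 and 41. UID-11337 was also read in 8 of 9 ovaries, with at most 23, and in 5 of 6 uteri, with at most 10, whereas UID-13844 had 2 reads in 1 ovary and at most 11 in a testis. The 2 loci were at least 39.5-fold and 34.5-fold above brain in females of 8-8.7 mo (edgeR adjusted p = 6.44e-05 and 2.31e-05).

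Age in testis gave few calls. Between 7.6 and 1.9-3.6 mo, edgeR called 0 of 141 clustered loci (0% of all 756 loci), as did DESeq2, and 14 of the 141 and 55 of the 756 had an unadjusted p under 0.05. Between 22.3 and 7.6 mo it called 1 of 143, lower at 22.3 mo (0.262% of all loci), with 20 at an unadjusted p under 0.05, while DESeq2 called 4. The bounded median log2 difference was 0.45 against 0.32 over all loci for the first step, with 104 of 141 clustered loci above 0 (73.8%, all loci 69.0%), and -0.28 against -0.24 for the second, with 43 of 143 above 0 (30.1%, all loci 35.8%). TMM scaling moved the medians of all loci by -0.30 and 0.22. The comparisons share the 7.6 mo testes.

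The locus called was UID-7999 (chr13:67155754-67160753, plus strand). Its testes had 10, 20 and 13 reads at 1.9-3.6 mo, 34, 18 and 12 at 7.6 mo and 0, 0 and 0 at 22.3 mo, so the oldest group lay below all others. The level at 22.3 mo was at least 23.9-fold lower than at 7.6 mo (edgeR adjusted p = 0.00308), but the adjusted p was 0.229 without mouse 1209, and DESeq2 gave none. The locus passed the low-count filter through the 7.6 mo testes alone, so only a lower level at 22.3 mo could be called. The neighbour UID-7577, whose window overlaps it on the same strand, had 48, 84 and 26, then 70, 42 and 47, then 16, 28 and 14 reads in these testes.

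Loci in the longest chains were mostly silent in these reads. On chromosome 4, the chain of UID-13399 to UID-13403 (chr4:73612627-73678134, minus strand) held 5 loci spaced 15104 to 15134 bp apart and had 0 reads in all libraries. So had the chain of UID-13444 to UID-13447 with UID-13189 (chr4:73881395-73937675, plus strand), spaced 6877 to 14837 bp apart. The other chains of 5 had 6 reads each over all libraries. They were that of UID-2812, UID-2813, UID-2563, UID-2284 and UID-2965 (chr6:109041795-109098869), that of UID-2194, UID-2091, UID-2195, UID-2092 and UID-2093 (chr15:24643372-24695138), and that of UID-2137, UID-1870, UID-1737, UID-2004 and UID-2138 (chr15:29534004-29597455).

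A locus outside the naming rule, chosen after its values were seen, was read in every library as UID-3342 was. UID-7432 (chr13:89843379-89848316, minus strand) lies on the strand of Xrcc4, which encodes a protein of DNA double-strand break repair, with Gm4117 on the other strand. It had 8, 30 and 51 reads in testes (lowest, median, highest), 7, 26 and 44 in ovaries, 8, 22 and 41 in lungs and 8, 34 and 58 in uteri. Brains, with 3, 9.5 and 19, and livers, with 4, 9 and 13, were lower, and all organs overlapped.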

How the data were processed

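The authors aligned both reads of each fragment to mm10 with Bowtie 0.12.8, kept single alignments, removed duplicates and counted reads per L1 window and strand with bedtools 2.27.1, as the study's methods and scripts give it. The plus-strand counts of the 8-8.7 mo brain of mouse 1325 do not carry the mark of duplicate removal that all others carry, so they may hold duplicates. The deposited values used were the read count of each locus, an unnormalized count in which the reads of a fragment are counted separately (4.55 to 13.5% of the non-zero counts of a library were odd), and the fraction of the window covered by reads. Mapped reads per library were recovered by dividing the deposited counts by the FPKM values that the authors tabulated for some loci, so rpm rests on that table. In 5 of 56 libraries the tabulated column that matched carried the number of another mouse. The uteri of mice 1324 and 1534 gave the same 26.75 M, so the rpm of 1 of them may be off. A library had 8.45 M to 51.4 M mapped reads (M, 1000000) and 9567 to 109959 L1 reads. No per-sample column was left out for want of a label.

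Python 3.11.15 with numpy 2.4.6, pandas 2.3.3, scipy 1.17.1 and matplotlib 3.10.9 joined the strands, took each core once and computed reads per 1000000 mapped reads (rpm). Counts of all listed loci passing edgeR's filter were fitted by its quasi-likelihood test (edgeR 4.0.16, R 4.3.3) with mapped reads as library size, only the groups compared, and Benjamini-Hochberg adjustment over all loci tested, at a threshold of 0.05. The alternatives were TMM on L1 totals, DESeq2 1.42.0, no filter, a replicate block, leaving out each mouse, a neighbour limit of 10 kb, loci without overlapping windows, thinning, and shares of L1 reads. The code was tested on simulated data. By the labels, a number names 1 mouse, so equal numbers pair organs, and the paired deviations correlated at -0.048 to 0.415. Libraries of 12.8 mo entered no test. Exact permutation tests had been planned for sums over the loci, but no p is given for a sum, because the members and lists were chosen with earlier results of these data known.

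Named were clustered loci among the 3 highest of an organ by mean level, up to 3 per direction with the largest fold in a comparison among those called without overlap, the members of the longest chains, and the nearest neighbours of these. Annotation and sequence came from GENCODE release M21 (GRCm38, which is mm10). Gene overlaps use that annotation and not the expression of the gene.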

Additional observations from a re-analysis of the deposited data

Results flagged for a closer look

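In groups of 4 to 10 libraries, the highest or lowest library was compared with the rest by Dixon's criterion, which chance alone meets in about 1 in 20 groups. It was met in 11 of 72. That rate does not hold here, since a group with 3 values of 0 and 1 above 0 always meets the criterion. The same 4 mice also enter all groups, so the count says nothing about an excess over chance. The brain, lung and ovary groups of female mice at 8-8.7 mo, with 4 mice each, were the only groups large enough, and the 72 are these groups for each measure and named locus. Mouse 1324 stood apart in its lung, with 76 clustered loci read against 57 to 58, in its ovary, with 65.4 summed rpm without UID-3342 against 25.6 to 31.6 and 0.631 for UID-11337 against 0.0327 to 0.130, and in its brain, with 7.78 rpm for UID-11144 against 2.23 to 2.34. The lung of mouse 1325 had the lowest UID-1556 level, 0.0772 against 0.287 to 0.293. The rest were libraries with a few reads where the other 3 had 0, at 0.0505 for UID-59 and 0.0505 for UID-7999 in the brain of mouse 1324, 0.0607 for UID-10208 in the brain of mouse 1338, 0.0718 for UID-4794 in the lung of mouse 1324, 0.153 for UID-4794 in the ovary of mouse 1338 and 0.0655 for UID-13844 in the ovary of mouse 1337.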

How the results depend on the processing

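Counting the summed level as a share of L1 reads turned the log2 difference to -0.50 for testis minus liver, -0.10 for testis minus brain, -0.13 for ovary between 2.2-3.2 and 8-8.7 mo and -0.042 for lung. Without UID-3342 it turned to 2.89 (testis minus lung), 0.96 (ovary minus lung), 1.16 (ovary minus uterus) and -0.33 (lung minus brain), and with both changes, a setting chosen after seeing the data, to 4.20, 1.04, 1.74 and -1.20, with -0.17 for ovary minus brain. A neighbour limit of 10 kb gave -0.57 for testis minus liver. Leaving out each mouse gave -0.15 to 0.15 for testis minus liver, -0.18 to 0.41, -0.010 to 0.61 and -0.27 to 0.52 for ovary, brain and lung between these ages. Thinning turned loci over 10 reads to 1.57 for lung minus brain and -10.9 for testis 22.3 minus 7.6 mo, and counting loci with a read gave -12.3 for testis 7.6 minus 1.9-3.6 mo. Leaving out each mouse gave -3.33 to 0.333, -21.3 to 16.7 and -14.7 to 23.3 for these.

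Clustered against isolated loci turned to -0.64, -2.42, -0.93, -1.37, -1.07 and -1.38 (testis, liver, brain, lung, ovary, uterus) without the loci of the highest mean level, UID-3342 and the isolated UID-4915, which was not the highest isolated locus of most libraries, to -0.60, -2.17, -0.84, -1.35, -0.98 and -1.23 without the highest locus of each class in each library (chosen after seeing the data), and to -0.26, -0.17, -0.56, -0.71, -0.38 and -0.49 for the share of loci with a read. Leaving out a uterus gave 2.98 to 3.53, with too few libraries for an exact test to pass.

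With no low-count filter, edgeR called 196 clustered loci (testis minus liver), 244 (testis minus brain), 32 (ovary minus brain), 26 (lung minus brain) and 3 (testis 22.3 minus 7.6 mo). For the last, 0 were called among loci without overlapping windows and 4 by DESeq2. Leaving out each mouse gave 76 to 128 calls against liver, 82 to 136 against brain, in both cases the most without mouse 1305, 100 to 126 against lung, 0 to 1 for testis 7.6 minus 1.9-3.6 mo (1 without mouse 1110) and 0 to 12 for 22.3 minus 7.6 mo (0 without mouse 1209, 4 without 1303, 12 without 1305, 3 without 829). The replicate block gave 34 calls against lung, where 2 mice are shared, and log2 differences of summed level within 0.13 of those above (0.00, 1.27, -2.62, 1.31, -0.37, -1.02 and 1.68). It changed no other count by over 1.5 times. The cause of these changes was not tested. All other alternatives kept their direction and their side of the threshold, 112 for summed levels, 52 for loci over 10 reads, 62 for clustered against isolated and 47 for calls. Depth limits the low counts, since 3 reads stand for 0.0584 to 0.355 rpm.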

Other observations

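Of the clustered loci, 989 pairs were each other's nearest neighbour, 521 on the same strand and 468 on opposite strands. Among pairs with any read in testes, both loci had one in 45.7% of same-strand and 44.3% of opposite-strand pairs. In the other organs the shares were 25.7 and 14.6% in brain, 18.6 and 4.29% in lung, 24.6 and 10.9% in ovary, 18.3 and 5.26% in uterus and 8.33 and 6.38% in liver. Overlapping windows occur in same-strand pairs only, and without those the same-strand share was 45.8% in testis, 24.8% in brain, 16.1% in lung, 22.3% in ovary, 17.5% in uterus and 6.98% in liver. Opposite-strand pairs with starts as far apart had 43.5, 13.7, 4.41, 11.4, 5.41 and 6.52% in the same order. The strands thus lay close in testis and in liver, where 3 pairs of each kind had a read on both loci. The other contrasts also rest on few such pairs, 9 against 3 in lung, 10 against 4 in uterus, 25 against 15 in ovary and 31 against 20 in brain. These are descriptions with no test.

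The 12 libraries of 12.8 mo, from 3 male mice and with windows 900 bp shorter, gave more than 10 reads on 126, 45 and 136 clustered loci in testes, 20, 25 and 16 in brains, 6, 6 and 4 in livers and 8, 7 and 9 in lungs. UID-3342 had 39480, 55726 and 51872 reads in these lungs, 99.0 to 99.5% of the reads on clustered loci, as the male lungs of 7.6 mo were also its highest libraries. In these testes UID-59 had 603, 208 and 496 reads and UID-8059 had 103, 26 and 109. The share of clustered loci with a read exceeded the isolated share in the livers of mice 899 (0.959 against 0.894%) and 901 (1.59 against 1.33%). It was lower in the liver of mouse 900 (1.14 against 1.30%) and in all testes, brains and lungs of 12.8 mo.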
